A study of Mus musculus with 6 samples.

Results

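FoxO factors are forkhead transcription factors that are held in check by insulin and insulin-like growth factors. When the insulin receptor binds its ligand, it phosphorylates insulin receptor substrates, which recruit PI3-kinase and thereby activate the kinases AKT and SGK. These kinases phosphorylate FoxO proteins, which then leave the nucleus, so that FoxO activity is set largely at the level of the protein and its location rather than of its mRNA. In the nucleus FoxO factors transcribe genes of cell cycle arrest, cell death, protein breakdown, stress resistance and of the insulin pathway itself. Manganese (Mn) is a trace metal that serves as a cofactor of many enzymes, and in brain it has been studied in connection with insulin and IGF signaling.

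The 10 genes described here were chosen by name and role: the receptor Insr, the adaptors Irs1 and Irs2, the 4 FoxO factors Foxo1, Foxo3, Foxo4 and Foxo6, and the FoxO target genes Ccng2, Bcl2l11 and Fbxo32. The choice was made with earlier results of these data known. These genes are 10 of 53715 annotated mouse genes, and all 10 passed the filter on low counts, as did 16123 genes in all. RNA came from the cerebellum of adult male C57BL/6 mice, for which the labels name no engineered allele. Mice fed a low-Mn diet received 0 ppm Mn for 2 weeks, and mice fed a normal-Mn diet received 35 ppm Mn for the same time. Each diet had 3 mice, with 1 library of polyadenylated RNA per mouse. The tissue was the whole cerebellum, so the values are averages over neurons, glia, vessels and any attached choroid plexus and meninges.

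Low-Mn libraries held 14548336 to 17124327 counts and normal-Mn libraries 18446701 to 21277469 counts, so every normal-Mn library was deeper than every low-Mn one. The part of depth in the results was not tested. Levels are given as counts per 1000000 counts (CPM) after TMM scaling, and a fold change is the ratio of low-Mn to normal-Mn on the log2 scale, with its standard error (SE). A gene was said to have risen or fallen when the adjusted p of edgeR's quasi-likelihood test was under 0.05. Across all genes tested, 96 passed (0.595%), of which 67 were higher (0.416%) and 29 lower (0.180%) in Mn-deficient cerebellum. With upper quartile scaling the split was 53 higher and 37 lower. Normal-Mn replicate 2 stood apart from its group, with count differences to the other 2 normal-Mn libraries of 6.82 and 7.59 times the Poisson expectation, against 3.61 to 3.98 times between low-Mn libraries. Markers of granule and Purkinje neurons summed to at least 5241 CPM in every library, whereas 8 forebrain markers together reached 14.2 to 17.9 CPM in low-Mn and 15.4 to 17.8 CPM in normal-Mn libraries.

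Ccng2, a cyclin G family gene whose product restrains the cell cycle, was the only one of the 10 genes that passed the test, and it rose 1.30-fold in Mn-deficient cerebellum. Ccng2 was also listed as raised by the study from the same samples, so its direction is not independent evidence. The remaining 9 genes passed in neither direction. Foxo3, Foxo4 and Insr had higher values in all 3 low-Mn libraries than in any normal-Mn library, by 10.4%, 16.7% and 9.95% on average, but none of them passed after adjustment. Foxo1, Irs1, Irs2, Bcl2l11, Fbxo32 and Foxo6 had overlapping diets. The bulk tissue cannot tell fewer cells of a type from less RNA per cell. Libraries that did not overlap between diets were seen for 3 of the 10 genes, all higher, against 17.1% of all tested genes (8.79% higher and 8.32% lower). At an unadjusted p under 0.05, 4 of the 10 stood, all higher, against 12.1% of the 16123 tested genes (1054 higher and 900 lower). The median log2 fold change was 0.03 over the 10 genes and -0.0025 over all tested genes.

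**Figure D1:**
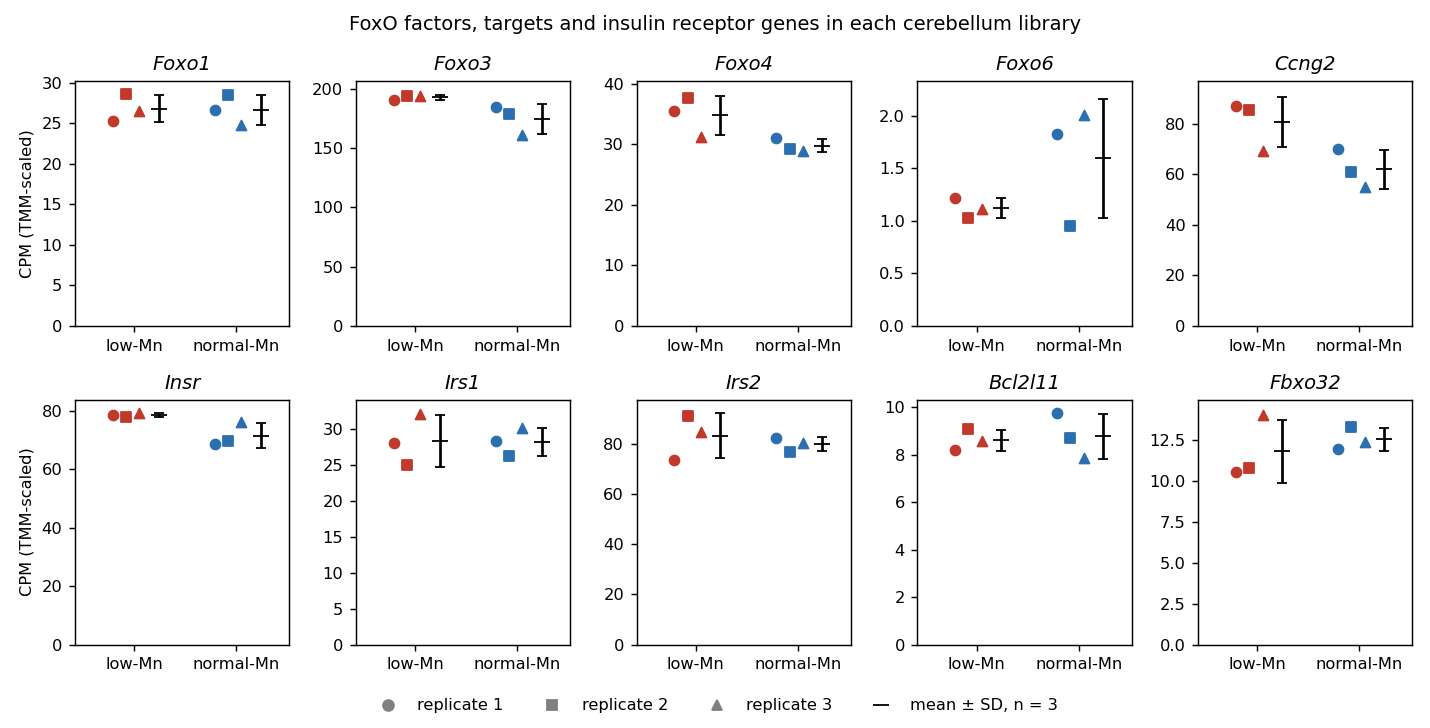
TMM-scaled CPM of the 10 genes in each library, with low-Mn libraries on the left and normal-Mn libraries on the right of every panel and bars for the mean and SD of 3 libraries. The low-Mn points of Foxo3, Foxo4 and Insr lie above all their normal-Mn points, while for Ccng2 low-Mn replicate 3 (69.3 CPM) lies just under normal-Mn replicate 1 (70.0 CPM).

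Levels were compared between genes as CPM per kilobase of annotated exon, averaged over the 6 libraries. Foxo3 was the most abundant at 24.3 ± 1.69 CPM per kb (SD, n = 6), and its lowest library (21.2) lay above every library of every other gene in the group. Ccng2 (13.05 ± 2.36) and Irs2 (12.9 ± 0.971) followed and could not be ordered, because their libraries overlapped. Foxo4 reached 9.26 ± 1.01 CPM per kb, with a highest library of 10.8 that overlapped the lowest Ccng2 library (10.04) but not the lowest Irs2 library (11.7). Insr stood lower, at 5.46 ± 0.342 CPM per kb, with no overlap on either side. Irs1 (3.09 ± 0.283) and Foxo1 (3.08 ± 0.182) could not be told apart in level. Below them Fbxo32 (1.75 ± 0.196), Bcl2l11 (1.08 ± 0.082) and Foxo6 (0.519 ± 0.170) each occupied a range of their own. The order of the 10 genes thus spanned a wide range, with the transcript of one FoxO factor at its top and that of another at its foot.

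**Figure D2:**
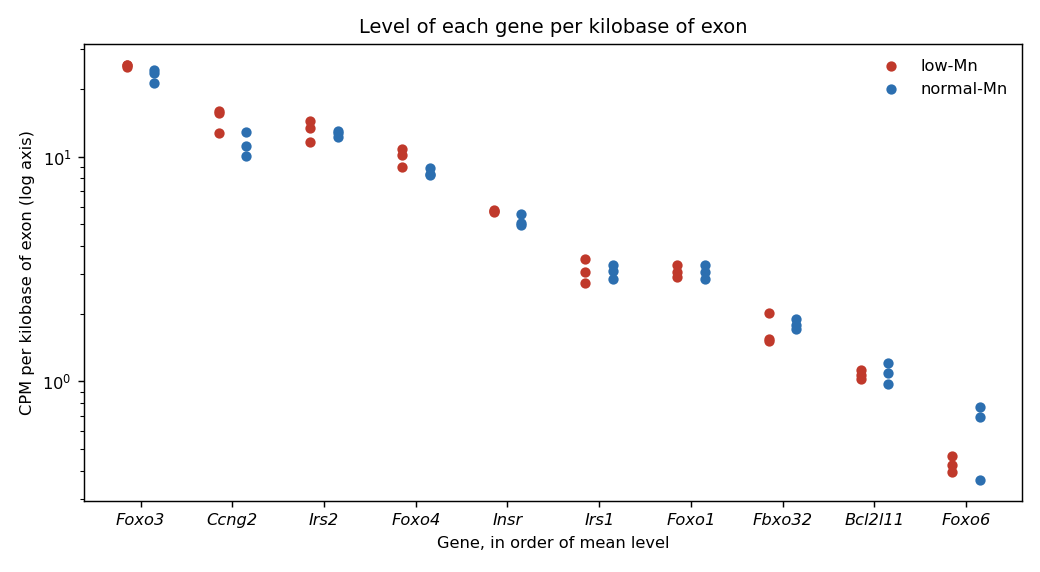
Level of each of the 10 genes as CPM per kilobase of exon on a log axis, 1 point per library, with low-Mn libraries placed to the left of normal-Mn libraries. Foxo3 stands highest (21.2 to 25.7 CPM per kb over the 6 libraries) and Foxo6 lowest (0.364 to 0.767), and the diets of a gene differ far less than the genes do.

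Insr encodes the insulin receptor, a receptor tyrosine kinase (ENSMUSG00000005534, GRCm38 chromosome 8, 3122061 to 3279617, minus strand). Its level was 78.5, 77.9 and 79.3 CPM in low-Mn libraries 1, 2 and 3, against 68.6, 69.7 and 76.3 CPM in normal-Mn libraries 1, 2 and 3. The low-Mn libraries lay within a narrow band above all 3 normal-Mn libraries, of which replicate 3 came closest. The log2 fold change was 0.14 (SE 0.0554), with an unadjusted p of 0.0227 and an adjusted p of 0.315 by edgeR's quasi-likelihood test. Igf1r, the receptor of insulin-like growth factor 1 and the closest relative of Insr, had a log2 fold change of 0.09 (adjusted p = 0.545, edgeR). Insr made up 54.8 ± 1.13% of the summed Insr and Igf1r level per kilobase in low-Mn and 54.1 ± 2.17% in normal-Mn libraries (SD, n = 3 each), so the balance of these receptors' transcripts moved by less than its spread.

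Irs1 and Irs2 encode the adaptors that couple the activated receptor to PI3-kinase, and Irs2 is also known as a FoxO target in mouse liver. Irs2 (ENSMUSG00000038894, chromosome 8, 10984681 to 11008458, minus strand) had 73.8, 91.3 and 84.8 CPM in low-Mn libraries and 82.4, 77.0 and 80.6 CPM in normal-Mn libraries. Its low-Mn libraries lay on both sides of the normal-Mn ones and were spread more widely (SD 8.85 in low-Mn and 2.77 CPM in normal-Mn libraries), and the log2 fold change was 0.06 (SE 0.0650, adjusted p = 0.792, edgeR). Irs1 (ENSMUSG00000055980, chromosome 1, 82233101 to 82291416, minus strand) had 28.0, 24.9 and 32.1 CPM in low-Mn libraries and 28.3, 26.2 and 30.1 CPM in normal-Mn libraries. Both the highest and the lowest Irs1 value were low-Mn ones, with a log2 fold change of 0.01 (SE 0.0909, adjusted p = 0.979, edgeR). The Irs1 values are uncertain, because 30.9% of its exon bases overlap Gm9747 on the opposite strand, a gene with 141 to 228 counts per library. The labels name a directional library kit and the methods a kit not called directional, and no source used here says whether the counting used strand, so reads of Irs1 and Gm9747 may not be told apart. The share of Irs2 was 80.9 ± 2.80% of the summed Irs1 and Irs2 level per kilobase in low-Mn and 80.4 ± 0.833% in normal-Mn libraries (SD, n = 3 each).

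The 7 bases CAAAACA form an insulin response motif known from liver FoxO target promoters, and GTAAACA is the core motif that FoxO factors bind. Promoter windows of 300 bases (250 before and 50 after the annotated start, RefSeq, build GRCm38.p6) were at hand for 6 of the 10 genes, in 7 windows. CAAAACA or its reverse TGTTTTG occurred in 3 of the 7 windows, those of Ccng2, Irs1 and Irs2, and in 6.28% of all 32851 windows. GTAAACA or its reverse TGTTTAC occurred in 1 of the 7, a window of Bcl2l11, and in 3.65% of all windows. Over the 14933 windows of tested genes, the shares were 4.26% for CAAAACA and 2.59% for GTAAACA. Both strands were searched, and no match overlapped another. The stretches that carry the matches are shown because they are the places in these windows where either motif was read exactly. Other spellings of the motifs and sites outside the windows were not searched. Capitals mark the motif, and each stretch runs 5′ to 3′ along the strand of its gene.
Ccng2, chr5:93267537-93267583, plus strand: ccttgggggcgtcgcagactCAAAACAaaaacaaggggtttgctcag
Irs2, chr8:11008940-11008986, minus strand: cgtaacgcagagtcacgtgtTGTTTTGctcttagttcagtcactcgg
Irs1, chr1:82291445-82291570, minus strand: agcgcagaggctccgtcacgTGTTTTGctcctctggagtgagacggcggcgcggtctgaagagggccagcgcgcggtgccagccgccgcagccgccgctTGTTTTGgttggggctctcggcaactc
Bcl2l11, chr2:128125791-128125837, plus strand: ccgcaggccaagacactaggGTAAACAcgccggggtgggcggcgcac
Irs1 carried the motif at 2 places in reverse orientation, and Ccng2 and Irs2 carried it once each, in forward and in reverse orientation. A match of these letters is a description of the window and not evidence of binding. Of the 4 genes that carried a match, Ccng2 rose, and Irs1, Irs2 and Bcl2l11 did not pass the test.

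Foxo3 (ENSMUSG00000048756, chromosome 10, 42181841 to 42276755, minus strand) encodes a FoxO factor known in mouse for roles in neural stem cells, ovary and stress resistance. It had 190, 194.2 and 194.1 CPM in low-Mn libraries 1, 2 and 3, against 185, 178 and 161 CPM in normal-Mn libraries 1, 2 and 3. The low-Mn libraries were nearly equal, whereas the normal-Mn libraries were spread, with replicate 1 close to the low-Mn values. The log2 fold change was 0.14 (SE 0.0504), with an unadjusted p of 0.0104 and an adjusted p of 0.238 by edgeR's quasi-likelihood test.

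Foxo4 (ENSMUSG00000042903, chromosome X, 101254528 to 101260873, plus strand) encodes a smaller FoxO factor known for work in muscle and endothelium. Its level was 35.5, 37.7 and 31.2 CPM in low-Mn libraries and 31.0, 29.3 and 29.0 CPM in normal-Mn libraries. The diets were separated, but low-Mn replicate 3 stood barely above normal-Mn replicate 1. On the log2 scale the difference was 0.22 (SE 0.0790), with an unadjusted p of 0.0105 and an adjusted p of 0.238 (edgeR).

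Foxo1 (ENSMUSG00000044167, chromosome 3, 52268336 to 52353221, plus strand), the family member best known for glucose production in liver, had 25.3, 28.6 and 26.5 CPM in low-Mn libraries and 26.6, 28.5 and 24.8 CPM in normal-Mn libraries. The diets covered nearly the same span, and the log2 fold change was 0.01 (SE 0.0836, adjusted p = 0.984, edgeR). Of its exon bases 7.78% overlap Gm20402 on the opposite strand, a gene with at most 14.4 counts in any library. Foxo6 (ENSMUSG00000052135, chromosome 4, 120267079 to 120287349, minus strand) encodes the family member that in mouse is best known from brain, where it is linked to memory. It was rare in these cerebella, with 15 to 39 counts per library, and had 1.22, 1.03 and 1.11 CPM in low-Mn libraries and 1.83, 0.952 and 2.01 CPM in normal-Mn libraries. Normal-Mn replicate 2 was the lowest of all 6 and the other 2 normal-Mn libraries the highest, so the diets overlapped. The log2 fold change was -0.50 with an SE of 0.374 (adjusted p = 0.651, edgeR), and an estimate of this size did not pass the test with these counts and this spread.

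Within the FoxO family, shares of the summed level per kilobase were close between the diets. Foxo3 held 65.4 ± 1.76% in low-Mn and 65.3 ± 1.16% in normal-Mn libraries, and Foxo4 held 25.6 ± 1.81% in low-Mn and 24.2 ± 0.760% in normal-Mn libraries (SD, n = 3 each). Foxo6 held 1.10 ± 0.113% in low-Mn and 1.74 ± 0.657% in normal-Mn libraries. Foxo1 held 7.54%, 8.22% and 8.04% in low-Mn libraries, against 8.30%, 9.22% and 8.62% in normal-Mn libraries, so that its share of the family was lower in every low-Mn library although its own level was not. These shares are descriptions, and 3 libraries against 3 could give no exact permutation p below 0.1.

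Ccng2 (ENSMUSG00000029385, chromosome 5, 93267257 to 93276231, plus strand) encodes cyclin G2, which unlike most cyclins slows the cell cycle, and it is a FoxO target known from cultured mouse and human cells. Its level was 87.1, 85.3 and 69.3 CPM in low-Mn libraries 1, 2 and 3, against 70.0, 60.9 and 54.8 CPM in normal-Mn libraries 1, 2 and 3. Low-Mn replicates 1 and 2 lay well above all normal-Mn libraries, but replicate 3 stood between normal-Mn replicates 1 and 2 in value, so the diets overlapped. Means were 80.6 ± 9.82 CPM in low-Mn and 61.9 ± 7.64 CPM in normal-Mn libraries (SD, n = 3 each). Its log2 fold change was 0.38 (SE 0.0833), and the adjusted p of 0.0432 by edgeR's quasi-likelihood test placed Ccng2 76th among the 96 genes that passed. It was 1 of only 3 of those 96 genes whose diets overlapped. No other annotated gene shared its exon positions.

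At an adjusted p of 0.0432 (edgeR) the Ccng2 call was near the threshold, and it depended on single libraries. Without low-Mn replicate 1, low-Mn replicate 2, normal-Mn replicate 2 or normal-Mn replicate 3 the adjusted p was 0.182, 0.175, 0.117 and 0.172 (edgeR), and without low-Mn replicate 3 or normal-Mn replicate 1 it was 0.00860 and 0.0154. With limma-voom, which called 0.391% of tested genes, the adjusted p was 0.0590, and with DESeq2, which called 1.29% of the genes it gave an adjusted p, it was 0.00792. The fold change stayed positive throughout, between 0.30 and 0.48 on the log2 scale.

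Bcl2l11 (ENSMUSG00000027381, chromosome 2, 128126038 to 128162547, plus strand) encodes BIM, a BH3-only protein that starts mitochondrial cell death and is a FoxO target in neurons deprived of growth factor. It had 8.19, 9.07 and 8.57 CPM in low-Mn libraries and 9.73, 8.71 and 7.86 CPM in normal-Mn libraries. All low-Mn values lay between the lowest and the highest normal-Mn value, and the log2 fold change was -0.03 (SE 0.139, adjusted p = 0.960, edgeR). Fbxo32 (ENSMUSG00000022358, chromosome 15, 58175879 to 58214932, minus strand) encodes atrogin-1, a ubiquitin ligase subunit by which FoxO factors drive protein breakdown in wasting muscle. It had 10.6, 10.8 and 14.1 CPM in low-Mn libraries and 11.9, 13.3 and 12.4 CPM in normal-Mn libraries. Low-Mn replicate 3 was the highest of all libraries and low-Mn replicates 1 and 2 the lowest, with a log2 fold change of -0.09 (SE 0.128, adjusted p = 0.854, edgeR).

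**Figure D3:**
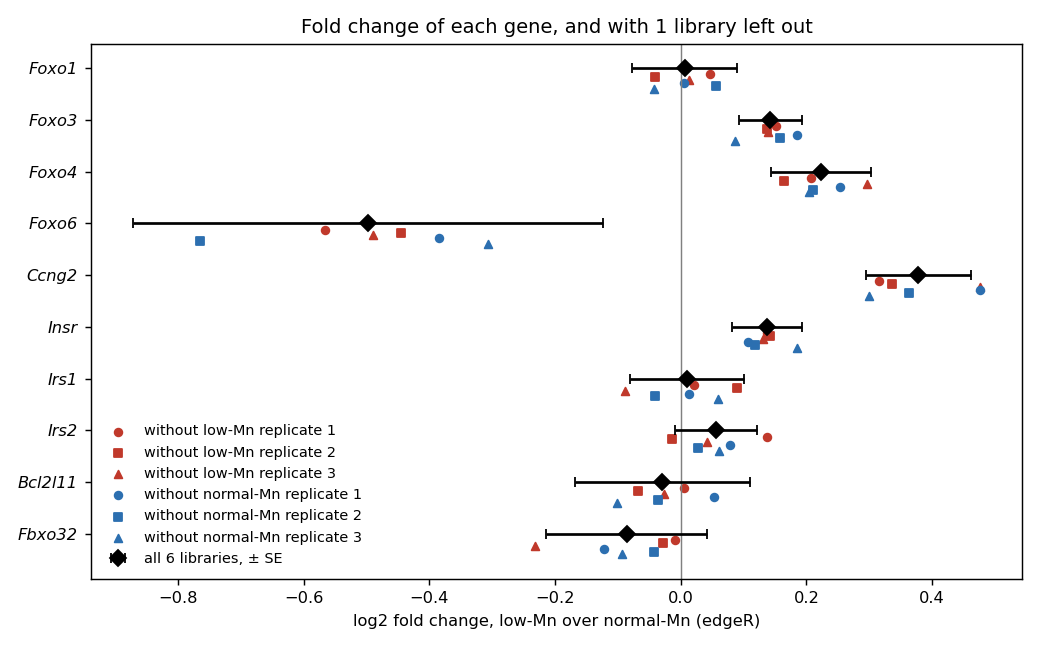
Change in level of the 10 genes as the log2 ratio of low-Mn to normal-Mn, with all 6 libraries (black diamonds, bars are the SE) and with each library left out in turn (colored symbols). With all libraries Ccng2 lies farthest above 0 (0.38), Foxo3, Foxo4 and Insr stay above 0 throughout, and Foxo1, Irs1, Irs2 and Bcl2l11 cross 0 when single libraries are left out.

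The fold changes of Foxo3, Foxo4 and Insr stayed positive whichever library was left out. Over all alternatives tried they ran over 0.09 to 0.18 for Foxo3, 0.16 to 0.30 for Foxo4 and 0.11 to 0.18 for Insr on the log2 scale. Their adjusted p was between 0.165 and 0.556, 0.120 and 0.562, and 0.218 and 0.598, so none of them was called in any of those fits. Without normal-Mn replicate 2, the library that stood apart, their log2 fold changes were 0.16, 0.21 and 0.12.

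The precision of these comparisons differed between the genes. Spread within a diet, as a coefficient of variation of CPM, was smallest for Insr (3.99%) and Foxo3 (4.85%), below the median of 7.81% over all tested genes. Foxo1 (6.60%), Foxo4 (7.57%), Irs2 (8.03%) and Bcl2l11 (8.44%) were near that median. Irs1 (10.2%), Fbxo32 (12.02%) and Ccng2 (12.4%) varied more between mice of the same diet, and Foxo6 (29.8%), with 25.0 counts per library on average, varied most. Ccng2, the gene that rose, was thus among the more variable of the group at 1275 counts per library, whereas Foxo3 with 3318 counts was among the steadiest.

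Genes whose log2 CPM ran most like that of a member were taken from 11685 genes with at least 100 counts on average, by Pearson r over the 6 libraries. With so many genes and 6 libraries, in which depth also went with diet, high values of r were found for every member. They are given as a description. For Ccng2 they were Rp9 (r = 0.994), Zkscan3 (0.993) and Hint2 (0.992). For Foxo4 they were Mxi1 (0.994), Ormdl3 and Grpel1 (both 0.992), for Foxo3 Mettl5 (0.990), Prcp (0.988) and Lman2l (0.987), and for Insr Map4k5 (0.992), Zswim8 (0.991) and Kdm6a (0.988). Among the genes that did not separate by diet, the top genes were Mapkapk5 for Foxo1 (0.981), Meis1 for Foxo6 (0.993), Nus1 for Irs1 (0.986), Rflnb for Irs2 (0.992), Tubg1 for Bcl2l11 (0.978) and Gm14399 for Fbxo32 (0.995). None of these genes was itself one of the 10. Between members, Ccng2 and Foxo4 had low-Mn replicate 3 as the lowest library of its diet, and the same library was the highest for Fbxo32.

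Other genes of the pathway were taken from 10 lists ordered by role, with 176 genes in all, of which 163 passed the filter on low counts. Sgk1, Ddit4 and Bcl6 rose, Igf2 fell, and 159 genes did not pass the test. The 4 of 163 that passed are to be read beside 0.595% of all tested genes (0.416% higher and 0.180% lower). These 4 genes were also singled out by the study from the same samples, so their directions are not independent evidence. Sgk1, Ddit4 and Bcl6 passed in all 14 alternative fits, whereas Igf2 did not. Diets did not overlap for 41 of the 163 genes, 27 of them higher and 14 lower, to be read beside the 17.1% of all tested genes. At an unadjusted p under 0.05 there were 20 higher and 11 lower genes, or 19.0%, against 12.1% of all tested genes (1054 higher and 900 lower). By list these genes numbered 1 of 17 ligands, receptors and adaptors, 4 of 20 kinases, 5 of 20 inhibitors and 7 of 31 regulators of FoxO proteins. Among targets they numbered 7 of 17 for cell cycle and DNA repair, 0 of 8 for cell death, 0 of 17 for autophagy and proteolysis, 3 of 10 for oxidative stress and 4 of 15 for metabolism and signaling, and among other forkhead genes 0 of 9. The median log2 fold change over the 163 genes was 0.01.

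Of the 20 ligands, receptors and adaptors, 17 were tested, none rose and 1 fell. Igf2, a fetal growth factor that in adult brain comes mainly from choroid plexus and meninges, had 159, 156 and 165 CPM in low-Mn libraries, against 191, 212 and 173 CPM in normal-Mn libraries. Every low-Mn library lay below every normal-Mn library, by a log2 fold change of -0.26 (SE 0.0585, adjusted p = 0.0432, edgeR). Igf2 is uncertain, because 62.1% of its exonic 50-base words also occur in Gm49394 or Igf2os, which overlap it. Its call was lost with limma-voom (adjusted p = 0.0590) and on leaving out any single library but normal-Mn replicate 3. The adjusted p was highest, at 0.200, without normal-Mn replicate 2, and it was 0.0133 without normal-Mn replicate 3 (edgeR). Markers of meninges, among which Igf2 is counted, summed to 272 to 313 CPM in low-Mn and 324 to 373 CPM in normal-Mn libraries. Igf2 itself, at 176 CPM on average over the 6 libraries, was the largest part of that sum. The sum therefore largely repeats the Igf2 values and is not separate information on the tissue. Of these 8 markers, 1 (Igf2) passed, all 8 had a log2 fold change below 0 and none had a mean level of 0. Choroid plexus markers summed to 3469 to 4298 CPM in low-Mn and 4096 to 4946 CPM in normal-Mn libraries. Of these 8 markers, 1 (Kl) passed as lower, and 7 had a log2 fold change below 0. The part of these tissues in the Igf2 result was not tested. Besides Igf1r, the adaptors Grb2 (log2 fold change 0.08, adjusted p = 0.483, edgeR) and Sos2 (0.11, 0.484) came nearest to the threshold.

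Among 20 PI3-kinase, AKT and related kinase genes, all tested, 1 rose and none fell. Sgk1, a kinase that phosphorylates FoxO factors alongside AKT and whose mRNA is induced by glucocorticoids, had 105, 93.9 and 107 CPM in low-Mn libraries, against 61.9, 81.7 and 69.6 CPM in normal-Mn libraries. The diets were well separated, with a log2 fold change of 0.52 (SE 0.0765, adjusted p = 0.00183, edgeR). Next by p were the mTOR complex gene Mlst8 (log2 fold change -0.17, adjusted p = 0.261, edgeR) and the genes of the PI3-kinase catalytic subunits Pik3cb (0.20, 0.285) and Pik3ca (0.11, 0.387). The list's median was -0.01.

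Among 20 inhibitors of the pathway, all tested, 1 rose and none fell. Ddit4, also called REDD1, restrains mTORC1 and is induced by stress and glucocorticoids. It had 81.4, 81.0 and 67.0 CPM in low-Mn libraries, against 53.4, 53.1 and 49.97 CPM in normal-Mn libraries, a clear separation with a log2 fold change of 0.55 (SE 0.0687, adjusted p = 5.5e-04, edgeR). Trib1, a pseudokinase, had a log2 fold change of 0.43 (adjusted p = 0.0756, edgeR), the phosphatase subunit gene Ppp2r1a -0.12 (0.278) and Tsc1, whose product restrains mTORC1, 0.14 (0.290). Of 32 genes whose products modify FoxO proteins, 31 were tested and none passed. Nearest were the acetyltransferase gene Ep300 (log2 fold change 0.19, adjusted p = 0.143, edgeR), Skp2 (0.36, 0.205), whose product marks FoxO1 for breakdown, the kinase gene Dyrk1a (0.17, 0.206) and the deacetylase gene Sirt1 (0.24, 0.214).

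FoxO targets other than the members were grouped by function. Of 19 cell cycle and DNA repair targets, 17 were tested, 1 rose and none fell. Bcl6, a transcriptional repressor and a FoxO target known from lymphocytes, had 84.8, 68.9 and 70.2 CPM in low-Mn libraries, against 43.5, 55.9 and 47.4 CPM in normal-Mn libraries. Its diets were separated, with a log2 fold change of 0.61 (SE 0.0846, adjusted p = 0.0015, edgeR). Cited2, which encodes a transcriptional coregulator, had a log2 fold change of 0.22 (adjusted p = 0.0874, edgeR), Cdkn1a, which encodes the cell cycle inhibitor p21, 0.32 (0.117) and the CDK4 and CDK6 inhibitor gene Cdkn2d 0.23 (0.185). The list's median log2 fold change was 0.06.

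None of the 8 tested of 9 cell death targets passed, nor did any of 17 tested of 18 autophagy and proteolysis targets, 10 of 10 oxidative stress targets or 15 tested of 20 metabolism and signaling targets. Among cell death targets, the log2 fold change was 0.10 for Bcl2l1 (adjusted p = 0.4997, edgeR), which encodes the survival protein BCL-XL, 0.15 for Bbc3 (0.704), which encodes PUMA, 0.34 for Fas (0.798) and -0.78 for the death receptor gene Tnfrsf10b (0.439). Among autophagy genes it was -0.11 for the mitophagy receptor gene Bnip3l (adjusted p = 0.414, edgeR), -0.11 for Gabarap (0.434), 0.08 for Ulk1 (0.553) and -0.09 for the proteasome gene Psma1 (0.572). Among oxidative stress genes it was 0.16 for Sesn1 (adjusted p = 0.179, edgeR), -0.11 for the selenium carrier gene Selenop (0.324), -0.18 for Sesn2 (0.364) and -0.13 for the catalase gene Cat (0.491). Sod2, which encodes the mitochondrial superoxide dismutase that uses Mn as its cofactor and is a FoxO3 target in cultured cells, had a log2 fold change of -0.06 (adjusted p = 0.652, edgeR) and was chosen for mention after its value was seen. Among metabolism and signaling genes, it was -0.22 for the apolipoprotein gene Apod (adjusted p = 0.0647, edgeR), 0.18 for Acvr1b (0.150), 0.59 for Klf2 (0.200) and -0.15 for Smad3 (0.318).

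**Figure D4:**
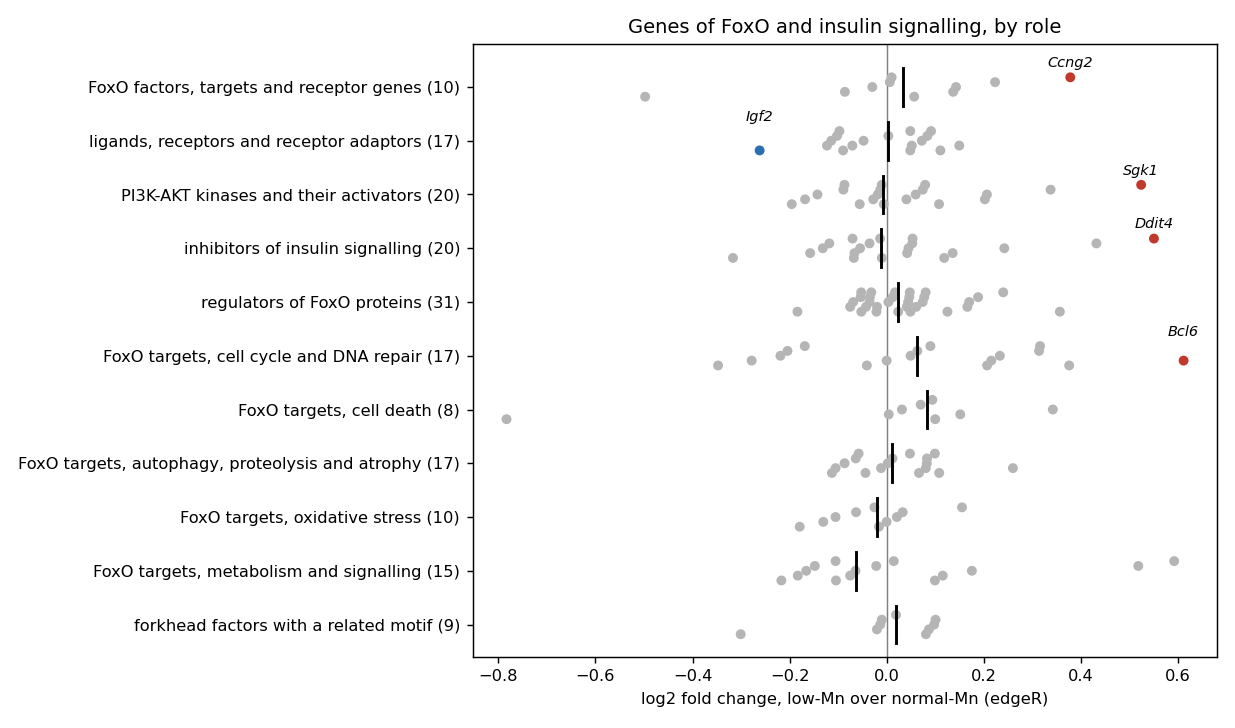
Log2 ratio of low-Mn to normal-Mn for the 10 genes described here (top row) and for each tested gene in the 10 pathway lists. Genes that rose are red, genes that fell blue and genes that did not pass grey, and a black bar marks the median of a row. The points of every list scatter around 0, and the 4 list genes that passed (Sgk1, Ddit4, Bcl6 and Igf2) stand in 4 different lists. In the top row Ccng2 alone passed.

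Cell type markers that moved between the diets are given beside these results. Summed over 8 markers each, endothelial and mural genes reached 216 to 232 CPM in low-Mn and 206 to 214 CPM in normal-Mn libraries. Singly, 0 of these 8 passed the test, 3 had a log2 fold change below 0, and the median was 0.046. The mural gene Rgs5, the most abundant of the 8 at 81.6 CPM on average, had a log2 fold change of 0.22 (adjusted p = 0.0969, edgeR). Astrocyte markers summed to 3057 to 3122 CPM in low-Mn and 3217 to 3328 CPM in normal-Mn libraries. Microglial markers summed to 143 to 151 CPM in low-Mn and 161 to 164 CPM in normal-Mn libraries. Of 8 markers each, 6 of astrocytes and 7 of microglia had a log2 fold change below 0, and 0 passed the test singly in either list. Granule neuron markers (5330 to 5496 CPM in low-Mn, 5241 to 5553 CPM in normal-Mn) and Purkinje neuron markers (8500 to 8875 CPM in low-Mn, 8073 to 8724 CPM in normal-Mn) overlapped between the diets. No marker of these lists had a mean level of 0, and the part of cell makeup in the values of Ccng2, Foxo3, Foxo4 and Insr was not tested.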

How the data were processed

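Polyadenylated RNA from 6 cerebella, 3 per diet, was sequenced, and the libraries were grouped by the diet in the labels. Reads were mapped by the authors with STAR. RSEM, FastQC, DESeq2 and the build mm10 also stand in the processing notes of the submitters, and versions were not given in the sources. Deposited values are the authors' expected counts, one per gene and library and without normalization. Of those above 0, between 17.6% and 18.4% were not whole, and all were rounded. The methods call the mice biological replicates, whereas a figure legend speaks of technical triplicates. If they were technical, the p-values would measure technical spread only. The low-Mn columns carry only a number and were assigned to that replicate by elimination. A table of 137 genes with FPKM values in the study's supplement correlated best with the assigned column for 6 of 6 libraries. The 92 spike-in entries held 0 counts and were left out. All value columns were used.

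Genes were kept by filterByExpr (minimum count 10, minimum total 15), scaled by TMM and tested with glmQLFit and glmQLFTest in edgeR 4.0.16 (R 4.3.3, limma 3.58.1), adjusting p by Benjamini-Hochberg over the 16123 genes kept, with 0.05 as threshold. The fit was tested on simulated data. Alternatives were RLE or upper quartile scaling, no filter, a filter of 100 counts on average, unrounded counts, DESeq2 1.42.0, limma-voom, a replicate block and leaving out each library. Positions, exon lengths and symbols came from GENCODE M21, which named 53620 of 53715 genes. Promoters came from RefSeq. Python 3.11.15 with matplotlib 3.10.9 was used for sequences and plots. The members and lists were chosen with earlier results of these data known. Lists came from general knowledge. The genes named are the 10 members, the genes of each list that passed, up to 4 a list with the smallest p (passing genes included), and for each member up to 3 genes most like it in log2 CPM. Positions are on GRCm38. The result of 1 further marker list is not reported here.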

Additional observations from a re-analysis of the deposited data

How the results depend on the processing

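The count of all genes past the threshold was 96 and became 424 with no filter on low counts (218 higher), 156 with DESeq2, 63 with limma-voom and 37 to 93 without single libraries, the fewest being 37, 45 and 47 without low-Mn replicate 2, normal-Mn replicate 2 and low-Mn replicate 1. Of the 10 members, 1 passed (Ccng2), 0 passed with limma-voom and 0 to 1 without single libraries. Of the list genes, 4 passed, and 9 passed with no filter, which added Apod, Trib1, Btg1, Cited2 and Klf2 (Btg1 named after its value was seen). The log2 fold change of Foxo1 turned to -0.0056 with upper quartile scaling and -0.0023 with no filter, and that of Irs1 to -0.0012 with upper quartile scaling. Without single libraries it ran over -0.042 to 0.056 for Foxo1, -0.088 to 0.090 for Irs1, -0.014 to 0.14 for Irs2 and -0.10 to 0.053 for Bcl2l11. The cause of these shifts was not tested. With the replicate block, 128 genes, 1 member and 5 list genes passed. The numbers were not taken as pairing the mice, because the deviations of same-numbered libraries had correlations of 0.030, -0.024 and 0.036. Foxo6 was below the stricter filter and gave no value there. Depth limits Foxo6 most, at 15 to 39 counts, and with 3 libraries per diet the exact permutation test cannot go below 0.1.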

Other observations

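Several genes of insulin and FoxO biology were too rare for the test. Ins2, an insulin gene that in mouse brain is transcribed at low levels, had 1, 1 and 1 counts in low-Mn libraries and 10, 2 and 9 counts in normal-Mn libraries. The other insulin gene, Ins1, had 0 counts in every library, and so did Pck1, a gluconeogenic FoxO target of liver. A count of 0 allows a level of up to 0.141 to 0.206 CPM, taking 3 counts per library as the limit and covering counting error only. Il7r, a FoxO1 target in T cells, had 3, 1 and 2 counts in low-Mn libraries and 3, 5 and 11 counts in normal-Mn libraries. Fasl, the ligand of the death receptor FAS, had 2, 2 and 4 counts in low-Mn libraries and 2, 1 and 0 counts in normal-Mn libraries. Cdkn2b, a cell cycle inhibitor gene, had 8, 10 and 9 counts in low-Mn libraries and 9, 5 and 7 counts in normal-Mn libraries. These genes were chosen after their counts were seen, and no fold change is given for them. The counts are not scaled, and every normal-Mn library was deeper than every low-Mn one.

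Other forkhead genes expressed in the cerebellum were listed beside the FoxO factors, and all 9 were tested with none passing. The log2 fold change was 0.08 for Foxn3 (adjusted p = 0.496, edgeR's quasi-likelihood test), 0.10 for Foxj3 (0.552), 0.10 for Foxk1 (0.609) and 0.09 for Foxj2 (0.612), and the median of the 9 was 0.02. Foxo3 and Foxo4, at 0.14 and 0.22, lay above these 4 values, and that difference between genes was not tested.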
